A study of Mus musculus with 2 samples.

Results

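The regions described here are the distal SRCAP CUT&RUN peaks of mouse embryonic stem cells (mESCs) that were found with an antibody against GFP and not with an antibody against SRCAP. A peak was a member if it lay on chromosomes 1 to 19 in the GFP list, overlapped no peak of the SRCAP list by 1 bp or more, and had its midpoint outside the window from 1000 bp upstream to 500 bp downstream of every GENCODE vM21 transcription start site (TSS). The rule kept 9579 of the 28718 GFP peaks (33.4%), out of 56885 peaks in both lists. Of the 28290 GFP peaks on these chromosomes, 12337 overlapped no SRCAP peak, and the 9579 members made up 77.6% of those and 48.6% of all distal GFP peaks. Together they covered 2.71 Mb. The regions most like them are 10132 distal GFP peaks that overlapped a SRCAP peak (shared distal), 8991 distal SRCAP peaks that overlapped no GFP peak (SRCAP-only distal) and 2758 GFP-only peaks inside a promoter window (GFP-only promoter).

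Both libraries came from SYAT cells, CGR8 mESCs that carry YPet, a yellow variant of GFP, and AID, the auxin-inducible degron, at the end of SRCAP on both alleles and that express the plant receptor OsTir1, so no untagged line was compared. With the GFP antibody SRCAP is detected through YPet, and with the SRCAP antibody directly. The study describes its SRCAP map as one of control cells, kept in auxinole to hold back basal degradation, but which treatment each library had is not in the labels. There was 1 library per antibody, the lists hold no read counts, and the depth is unknown, so no member has a replicate check and no test was made between groups. The 95% Wilson intervals given below cover counting error only, and peaks are not independent replicates.

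SRCAP is the ATPase of a remodelling complex that replaces H2A-H2B dimers in nucleosomes with dimers holding the variant H2A.Z. H2A.Z nucleosomes flank active and poised promoters, enhancers and sites bound by the insulator protein CTCF. In CUT&RUN, a nuclease tethered to the antibody cuts the DNA around the bound protein, and the released fragments are sequenced, so a peak marks DNA close to the protein.

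The sequences of some members are shown first, since the same letters return in the counts below. They were read from the GRCm38 reference. For the member in an intron of Dot1l, which encodes the H3K79 methyltransferase (chr10:80757911-80757983, plus strand, score 97), the member in an intron of B4galnt3 (chr6:120222837-120222909, plus strand, score 84) and the intergenic member whose nearest coding gene is Mex3a (chr3:88522233-88522305, minus strand, score 83), capitals mark the match to the consensus of CTCF.
CTCF, Dot1l: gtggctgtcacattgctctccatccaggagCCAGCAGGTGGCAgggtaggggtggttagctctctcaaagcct
CTCF, B4galnt3: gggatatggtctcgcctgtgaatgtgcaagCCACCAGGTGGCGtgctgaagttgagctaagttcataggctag
CTCF, Mex3a: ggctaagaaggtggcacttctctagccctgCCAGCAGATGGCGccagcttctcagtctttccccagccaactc
In an intron of Ptp4a2 (chr4:129835330-129835398, minus strand, score 121) and in an intron of Dnmt3a, a de novo DNA methyltransferase gene (chr12:3890078-3890146, plus strand, score 92), capitals mark the consensus TCAAGGTCA of the orphan nuclear receptor ESRRB, a pluripotency factor.
ESRRB, Ptp4a2: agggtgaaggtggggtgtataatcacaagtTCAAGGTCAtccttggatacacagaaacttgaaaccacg
ESRRB, Dnmt3a: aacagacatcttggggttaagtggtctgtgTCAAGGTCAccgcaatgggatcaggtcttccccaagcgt
All 3 members with an OCT4-SOX2 consensus are shown with that consensus in capitals. They lay in an intron of Galnt17 (chr5:131177331-131177405, plus strand, score 53), upstream of Slain2 (chr5:72902492-72902566, plus strand, score 34) and in an intron of Ptprd (chr4:76011964-76012038, plus strand, score 24).
OCT4-SOX2, Galnt17: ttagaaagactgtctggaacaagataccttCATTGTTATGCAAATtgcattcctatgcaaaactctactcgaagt
OCT4-SOX2, Slain2: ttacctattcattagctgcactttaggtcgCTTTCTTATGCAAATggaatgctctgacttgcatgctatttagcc
OCT4-SOX2, Ptprd: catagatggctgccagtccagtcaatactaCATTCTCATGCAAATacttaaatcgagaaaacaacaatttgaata
The member inside the distal enhancer of Pou5f1, which encodes OCT4, is given whole (chr17:35504020-35504203, plus strand, score 17), with the protein binding sites that RefSeq annotates there in capitals, 1 of which RefSeq describes as holding an Oct/Sox box.
Pou5f1 distal enhancer: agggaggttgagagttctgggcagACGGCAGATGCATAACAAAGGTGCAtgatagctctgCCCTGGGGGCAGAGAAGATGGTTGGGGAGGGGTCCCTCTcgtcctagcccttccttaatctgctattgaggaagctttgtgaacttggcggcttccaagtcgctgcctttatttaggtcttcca
Last come stretches that many members share, in members near Vwc2 (chr11:10529505-10529575, plus strand, score 127), Naaladl2 (chr3:24968581-24968651, plus strand, score 136) and Tmem200a (chr10:25809707-25809777, minus strand, score 128), with the 31 shared bases in capitals, and windows of 2 of the highest-scoring members that are not mostly repeats, 1 upstream of L1td1 (chr4:98725447-98725646, plus strand, score 179) and 1 whose nearest coding gene is Zfp980 (chr4:145777679-145777878, plus strand, score 238), with CpG dinucleotides in capitals. The Zfp980 window holds no CpG.
recurrent stretch near Vwc2: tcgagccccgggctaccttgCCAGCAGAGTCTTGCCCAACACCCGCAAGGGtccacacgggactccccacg
recurrent stretch near Naaladl2: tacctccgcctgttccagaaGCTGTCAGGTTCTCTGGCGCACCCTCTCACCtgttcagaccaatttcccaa
recurrent stretch near Tmem200a: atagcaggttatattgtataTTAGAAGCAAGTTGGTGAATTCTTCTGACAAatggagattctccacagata
high score near L1td1: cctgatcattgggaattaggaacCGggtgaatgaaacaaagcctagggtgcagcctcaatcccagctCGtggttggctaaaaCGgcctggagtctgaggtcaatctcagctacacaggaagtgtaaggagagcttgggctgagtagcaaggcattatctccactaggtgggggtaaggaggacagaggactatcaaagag
high score near Zfp980: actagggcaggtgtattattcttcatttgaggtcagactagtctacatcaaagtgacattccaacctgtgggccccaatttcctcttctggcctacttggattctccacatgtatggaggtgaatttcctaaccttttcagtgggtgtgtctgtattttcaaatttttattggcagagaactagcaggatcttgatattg

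Members were weaker and narrower than the distal GFP peaks that overlapped a SRCAP peak. The authors' score, a whole number whose meaning was not stated and which compares peaks only within a list, ranged from 13 to 295 in members, with a median of 34 and quartiles of 28 and 47. In shared distal peaks it ranged from 13 to 265906, with a median of 59 and quartiles of 40 and 90. The shared distal peaks spanned the whole range of the members, so the groups overlapped. A score over 100 was found for 146 members and for 2009 shared distal peaks, 25 members stood at the list minimum of 13, and 2744 members (28.6%) reached the median of the whole GFP list. The width of members ranged from 173 to 2282 bp, with a median of 246 bp and quartiles of 201 and 326.5 bp. The median was 356 bp in shared distal peaks, which was 110 bp wider (104.6 to 115.4, 95% interval). It was 206 bp in SRCAP-only distal peaks and 246 bp in GFP-only promoter peaks, so members matched the promoter peaks found with the same antibody only in both median width and, nearly, in median score (36 in the promoter peaks).

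**Figure D1:**
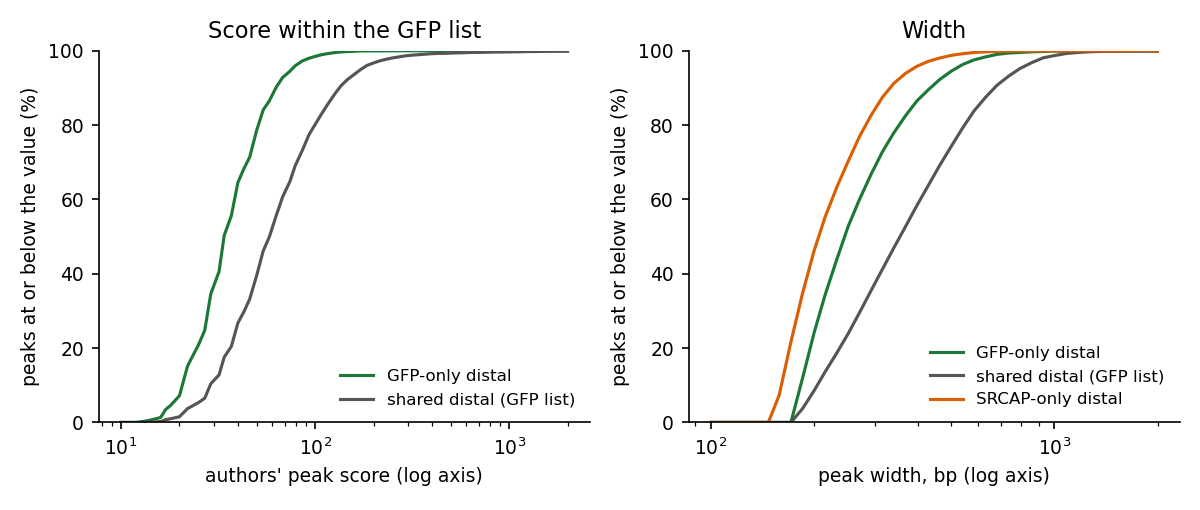
Cumulative share of peaks (%) by the authors' score in the GFP list (left, log axis) and by peak width in bp (right, log axis) for members (green), shared distal peaks (grey) and SRCAP-only distal peaks (orange, width only). The green score curve lies left of the grey one, with medians of 34 and 59, and the green width curve lies between the orange and the grey one.

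The 15 highest scores ran from 295 down to 156, where the last was tied with other members. The highest, 295, belonged to a peak of 203 bp that was 100% repeat-masked and lay 13344 bp upstream of Krtap20-2, a keratin-associated protein gene. Scores of 238, 237 and 228 followed, for intergenic members whose nearest coding genes were Zfp980, Mettl4 and Ttc29, at 81618, 62390 and 73418 bp from the TSS to the peak midpoint. Of the 15, 11 were more than 50% repeat-masked, 12 were intergenic and 3 intronic, and 2 lay within 10 kb of a protein-coding TSS. Those 2 were nearest to L1td1, an RNA-binding protein gene expressed in pluripotent cells (1187 bp upstream of its TSS, score 179), and Gm21119 (7595 bp upstream, score 174). None of the 15 held a CTCF consensus, but only 1.56% of all members did, so 15 are too few to show a difference.

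Some members lay beside a SRCAP peak, and most did not. The gap between a member and the nearest SRCAP peak had a median of 14478 bp, with quartiles of 5208.5 and 36153 bp. Within 100 bp there were 151 members (1.58%, against 0.410% of all distal bases), within 500 bp 563 (5.88%, against 1.09%), within 1 kb 931 (9.72%, against 2.04%) and within 10 kb 3877 (40.5%, against 17.7%). The ratios to the share of distal bases were 3.84, 5.41, 4.77 and 2.29 at these distances. The 2 shares are not like for like. The reference counts single bases, also those inside SRCAP peaks, where the rule allows no member, while members were measured from their edges. The ratios are therefore not read as a measure of nearness. In all, 5702 of 9579 members (59.5%) lay farther than 10 kb from any SRCAP peak. At the limit of the rule, the 28 members that missed a SRCAP peak by less than 10 bp had a median score of 34 and a median width of 230.5 bp, and the 19 distal GFP peaks that overlapped a SRCAP peak by less than 10 bp had medians of 33 and 224 bp. At the promoter limit, 177 GFP-only midpoints lay up to 100 bp outside and 155 up to 100 bp inside a promoter window. The nearest SRCAP peak was a shared distal peak for 40.4% of members (36.6% of the SRCAP list on these chromosomes), a SRCAP-only distal peak for 31.2% (32.3% of the list), a shared promoter peak for 18.9% (21.0%) and a SRCAP-only promoter peak for 9.43% (10.1%). Among the 931 members within 1 kb, SRCAP-only distal peaks were nearest for 386 and shared distal peaks for 404. A SRCAP-only distal peak was thus nearest to 41.5% of these members, and a SRCAP-only promoter peak to another 53. There both antibodies listed a peak at the locus but not at the same bases.

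Members occupied introns and intergenic sequence in near-equal numbers. Their midpoints fell in introns for 4633 members (48.4%, 47.4 to 49.4, against 43.2% of distal bases) and between genes for 4295 (44.8%, 43.8 to 45.8, against 52.8%). Coding exons held 240 (2.51%, against 1.16% of distal bases, 2.16-fold), UTRs 196 (2.05%, against 1.38%) and other exons 215 (2.24%, against 1.40%). Shared distal peaks were in introns for 45.8% and between genes for 48.3%, and SRCAP-only distal peaks for 48.3% and 43.9%. The members of coding exons had a median GC content of 54.6% and an observed over expected CpG ratio of 0.392, against 47.0% and 0.228 for intronic members. Members in UTRs held a CTCF consensus in 4.59% of cases and intronic members in 1.53%.

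**Figure D2:**
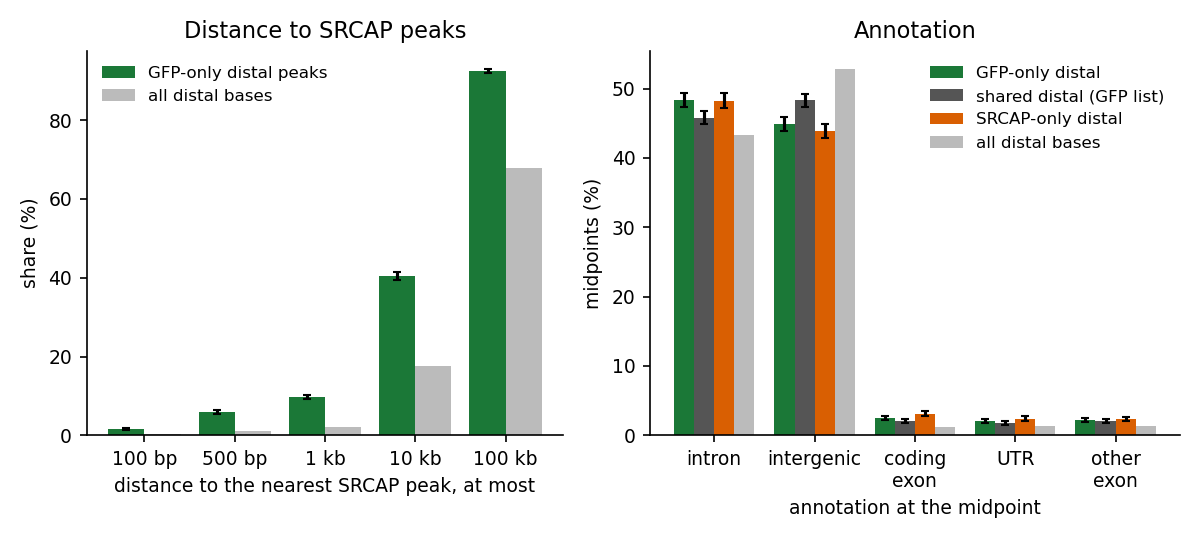
Left, share of the 9579 members (green) and of all distal bases (grey) within each distance of a SRCAP peak. The grey bars count single bases, also those inside SRCAP peaks, and the green bars measure from the edges of members. Right, share of midpoints in each annotation class for members, shared distal peaks and SRCAP-only distal peaks beside all distal bases. Error bars are 95% Wilson intervals. The green bars exceed the grey ones at every distance, from 1.58% against 0.410% within 100 bp to 92.5% against 67.8% within 100 kb.

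Distal members were still closer to start sites than distal sequence as a whole. The median distance from the midpoint to a TSS was 8936 bp in members, 9943 bp in shared distal peaks and 10014 bp in SRCAP-only distal peaks. Within 5 kb of a TSS lay 3181 members (33.2%, against 19.9% of distal bases), and within 10 kb 5126 (53.5%, against 35.1%). Of all members, 46.0% were upstream of the nearest TSS. Promoters with a GFP peak were nearby for many: 1281 members (13.4%, 12.7 to 14.1) lay within 10 kb of a GFP promoter peak, against 5.44% of distal bases, 11.7% of shared distal peaks and 10.7% of SRCAP-only distal peaks. Another GFP peak of any kind lay within 10 kb of 43.0% of members and within 1 kb of 10.5%.

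In base composition the members stood between the genome and the peaks of promoters. The median GC content of 500 bp at the midpoint was 47.4%, against 41.8% for all 500 bp tiles of chromosomes 1 to 19, 48.6% for shared distal and for SRCAP-only distal peaks and 53.0% for GFP-only promoter peaks. The median CpG ratio was 0.234 in members, 0.235 in both other distal groups, 0.157 in the tiles and 0.508 in GFP-only promoter peaks. Members therefore did not carry the CpG density of the promoters. The GC content rose locally, from 44.5% at -975 bp from the midpoint to 48.4% at -75 bp, and stood at 47.7% at -25 bp, so the highest values lay on the flanks and not at the midpoint. Repeat-masked bases fell from 30.3% at -975 bp to 21.0% at -25 bp. Of all member bases, 21.4% were masked, against 34.1% of distal bases, 24.4% of shared distal peak bases and 19.8% of SRCAP-only distal peak bases.

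**Figure D3:**
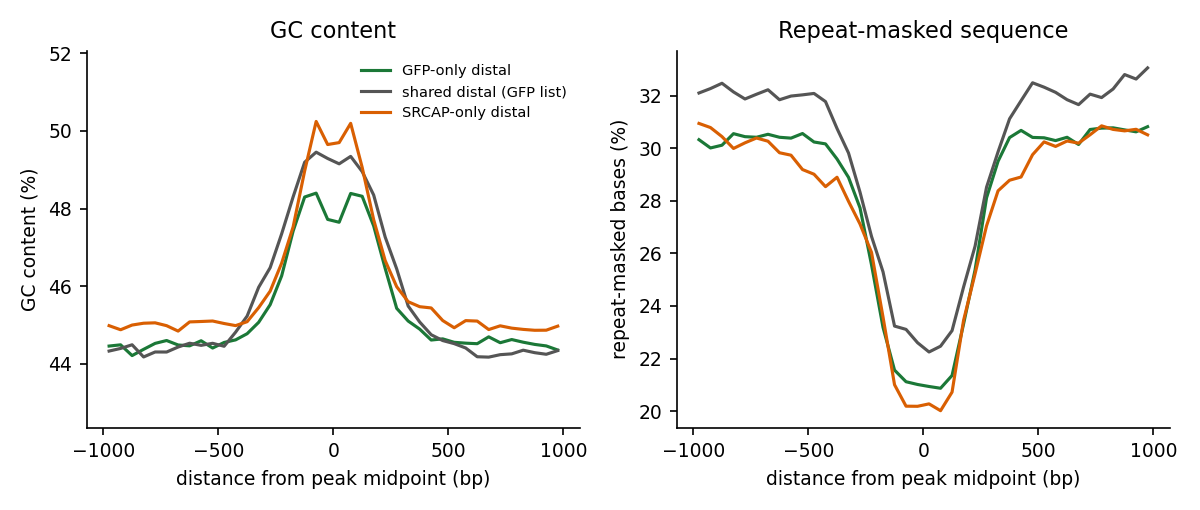
GC content (left, %) and repeat-masked bases (right, %) in bins of 50 bp as a function of the distance from the peak midpoint (bp) for the 3 groups of distal peaks, as means over all peaks of a group. In members (green) GC rises from 44.5% to 48.4% and dips to 47.7% next to the midpoint, and masked bases fall from 30.3% to 21.0%.

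Words of 6 bases, with both strands counted as 1 word, showed the same composition. Of 1919 words present in at least 1% of all 200 bp tiles, those most frequent in member windows relative to tiles were AGCGCC (4.06-fold), GCCCGC (3.66-fold), GCGGAA (3.64-fold), GCGGCC (3.55-fold), GCCGCC (3.54-fold), AGGCGC (3.51-fold), CCCGCC (3.47-fold) and CAGCGC (3.47-fold). All 8 hold a CpG. Each had a higher ratio to tiles in shared distal peaks (3.79 to 4.84-fold) and in SRCAP-only distal peaks (3.88 to 5.11-fold). The 8 least frequent were AT-rich words from ATATAT (0.253-fold) to CATATA (0.376-fold). Against shared distal peaks the order changed, with CCCGCC at 0.717-fold and GCGCAC at 0.719-fold in members, and TATCGA at 1.50-fold and ATTACG at 1.46-fold. These words are the extremes of the 1919, whose median ratio was 1.01. TATCGA was present in 0.919% of members and 0.612% of shared distal peaks.

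CTCF matches were less frequent in members than in the other distal groups. Its consensus was present within 200 bp at the midpoint in 149 members (1.56%, 1.33 to 1.82), in 2.11% (1.85 to 2.41) of shared distal peaks and in 4.07% (3.68 to 4.50) of SRCAP-only distal peaks, against 0.0708% of all 200 bp tiles. Weighted to the GC content of the peaks, members held it 13.5 times, shared distal peaks 16.4 times and SRCAP-only distal peaks 30.1 times as often as tiles. In 500 bp windows the counts rose to 416 members (4.34%), 5.12% of shared and 6.94% of SRCAP-only distal peaks. The matches lay at different places in the groups. Around member midpoints there were 6.37 matches per 1000 peaks at 0 to 50 bp, 10.2 at 50 to 100 bp, 16.1 at 100 to 150 bp and 8.77 at 150 to 200 bp, against 0.679 per 50 bp at 500 to 1000 bp. Around SRCAP-only midpoints the same distances gave 19.2, 25.9, 17.6 and 6.12. Around shared distal midpoints they gave 11.3, 11.7, 15.9 and 9.77, with the highest value at the same distance as in members. The median offset over 1000 bp was 132 bp in members, 125 bp in shared distal peaks and 91 bp in SRCAP-only distal peaks. Of the 420 matches within 250 bp of a member midpoint, 244 (58.1%, 53.3 to 62.7) fell inside the peak and 209 (49.8%) within 50 bp of one of its edges. The share inside the peak was 73.2% (69.3 to 76.8) in shared distal peaks and 79.0% (75.7 to 82.0) in the narrower SRCAP-only peaks.

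The 149 members with the CTCF consensus had the same median score as all members (34) but were wider (median 284 bp), less often more than 50% masked (4.03%) and closer to a TSS (median 5613 bp) and to a SRCAP peak (median gap 11144 bp).

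**Figure D4:**
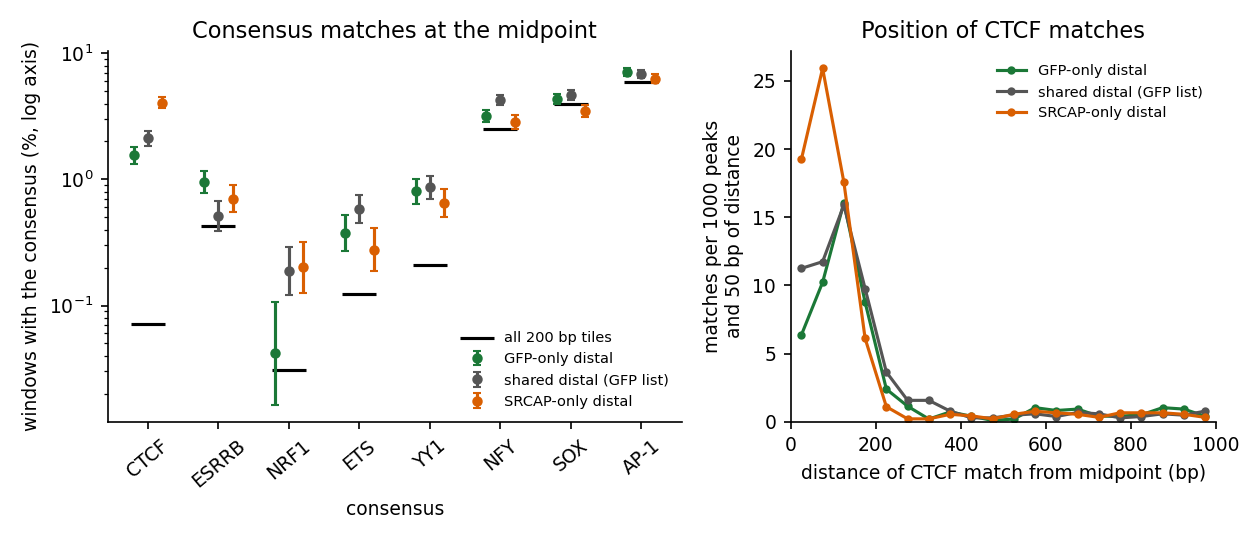
Left, share of 200 bp windows at the midpoint that hold each consensus (%, log axis), with 95% Wilson intervals, for members (green), shared distal peaks (grey) and SRCAP-only distal peaks (orange), and the share of all 200 bp tiles (black bars). Right, CTCF matches per 1000 peaks and 50 bp of distance from the midpoint. The green and grey curves are highest at 100 to 150 bp (16.1 and 15.9) and the orange one at 50 to 100 bp (25.9).

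ESRRB ran the other way. Its consensus stood in 91 members (0.950%, 0.774 to 1.16), in 52 shared distal peaks (0.513%, 0.392 to 0.672) and in 63 SRCAP-only distal peaks (0.701%, 0.548 to 0.895), against 0.427% of tiles. With masked bases left out, 50 members (0.522%), 30 shared and 30 SRCAP-only distal peaks kept a match, so much of the count came from repeats in all 3 groups. The members of highest score with it were those of Ptp4a2 (59.5% masked) and Dnmt3a (7.08% masked) printed above, and the B4galnt3 member held the CTCF, ESRRB and TEAD consensus together.

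The other consensus sequences ranged from a few members to more than CTCF. OCT4-SOX2 matched 3 members (0.0313%, against 0.00102% of tiles), 1 shared and 1 SRCAP-only distal peak. The SOX letters CATTGTT, which can lie whole inside that consensus, as in the Galnt17 member, matched 417 members (4.35%, against 3.95% of tiles). NRF1, a regulator of nuclear genes for mitochondrial proteins (GCGCATGCG), matched 4 members, 19 shared and 18 SRCAP-only distal peaks. The share of members was 0.0418%, against 0.0307% of tiles and 0.0591% of tiles weighted to the GC content of the members. In shared distal peaks it was 0.188%, against 0.0711% of tiles weighted to theirs. The ETS letters CCGGAAGT matched 36 members (0.376%, 0.272 to 0.520), 0.582% of shared and 0.278% of SRCAP-only distal peaks, against 2.10% of GFP-only promoter peaks. NFY (CCAATCA) matched 305 members (3.18%, 2.85 to 3.55) and 4.28% (3.91 to 4.70) of shared distal peaks, against 2.50% of tiles. REST matched 3 members (0.0313%, against 0.00246% of tiles), 2 shared and 13 SRCAP-only distal peaks. ZNF143 matched 1 member (0.0104%, against 0.00256% of tiles) and 16 GFP-only promoter peaks. YY1 (AAGATGGCG) matched 77 members, of which 11 were left without masked bases. That was 0.804% of members, against 0.208% of tiles, 0.485% of weighted tiles, 0.869% of shared and 0.645% of SRCAP-only distal peaks. AP-1 (TGANTCA) matched 7.17% of members, 5.96% of tiles and 5.63% of tiles weighted to the GC content of the members. TEAD, with the letters CATTCCA, matched 4.02% of members, 3.26% of tiles and 3.28% of weighted tiles. For the short GC-rich or AT-rich words the weighting mattered more. KLF, with CCCCACCC, matched 2.72% of members and 2.19% of tiles, but 3.88% of weighted tiles. For the GATA factors the letters AGATAA matched 10.2% of members and 13.2% of tiles, but 9.12% of weighted tiles, so both orders turned. The E-box CACGTG matched 2.90% of members (1.99% of tiles, 2.65% of weighted tiles), and the E-box with the letters CAGCTG matched 11.1% (7.37% and 10.7%). A match to such letters is a description of the sequence and not a measured binding site.

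Repeats were present in members at every level. More than 50% of the peak was masked in 1332 members (13.9%, 13.2 to 14.6), 16.8% of shared and 14.7% of SRCAP-only distal peaks, and 2833 members (29.6%) held no masked base, against 24.1% and 39.6%. The 399 members that were more than 90% masked differed in position from the 4436 that were at most 10% masked: 69.4% against 40.4% were intergenic, and 26.6% against 40.2% lay within 10 kb of a SRCAP peak. Short tandem repeats were scarce, with 186 members holding one (1.94%) and 0.211% of member bases in them, against 1.45% of distal bases. Sequence shared between members was common within the repeats. A stretch of 31 bases also found in another member was present in 1170 members (12.2%, 11.6 to 12.9), with a median of 71.5% masked bases, in 20.9% (20.1 to 21.7) of shared distal peaks and in 10.3% (9.72 to 11.0) of SRCAP-only distal peaks. For each group the other peak had to come from the same group. These shares, and those of peaks free of masked bases, were taken over whole peaks without adjusting for width or group size. Median widths were 246 bp in members, 356 bp in shared and 206 bp in SRCAP-only distal peaks. The stretch printed for Vwc2 occurred in 45 members, 42 shared and 40 SRCAP-only distal peaks, and these 45 members were 0.920% of its 4891 copies on chromosomes 1 to 19. That of Naaladl2 occurred in 40 members, 59 shared and 19 SRCAP-only distal peaks. The rarest of the 3 was that of Tmem200a, with 154 copies, of which 17 (11.0%) held a member and which also occurred in 41 shared and 2 SRCAP-only distal peaks. The methods of the study state for ChIP-seq and CUT&Tag that only reads mapping to 1 place were kept, and do not state it for CUT&RUN.

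Because shared peaks scored higher, the groups were also compared within quartiles of the score of all distal GFP peaks, which held 3893, 2838, 2160 and 688 members. The order of the repeat shares changed with the score. Peaks more than 50% masked made up 12.5%, 12.8% and 16.1% of members in the lower 3 quartiles against 9.86%, 10.6% and 13.9% of shared distal peaks, and 19.2% against 24.1% in the highest. The pooled order, with fewer masked peaks among members, therefore held only in the highest-scoring quartile. CTCF was less frequent in members in each of the 4, at 1.88%, 1.41%, 1.39% and 0.872% against 4.08%, 2.96%, 1.64% and 1.41%, with intervals that did not overlap in the lower 2. Median GC was lower in members in each quartile, by between 1.0 and 2.2 percentage points. ESRRB stood at 0.880% to 1.16% of members against 0.385% to 0.552% of shared distal peaks, and the intervals of these shares overlapped in each of the 4. Introns held 50.4% of members and 48.3% of shared distal peaks in the lowest quartile and 44.8% and 44.7% in the highest. For introns and for NFY the intervals of both groups overlapped in each of the 4 quartiles. Median width was smaller in members in each, by 31 bp in the lowest and 128 bp in the highest.

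Members were spread over all 19 chromosomes, at 4.00 per Mb of sequence. The density was highest on chromosome 8 (5.96 per Mb, 749 members), followed by chromosomes 11 (5.77) and 19 (5.43), and lowest on chromosome 1 (3.10). On chromosome 8 the other groups stood higher still, at 9.43 shared and 8.79 SRCAP-only distal peaks per Mb against 4.23 and 3.75 over all 19 chromosomes, so that members were 38.7% of its distal GFP peaks against 49.7% on the other chromosomes together. Chromosome 19 had the highest such share, 55.3%. Among 2376 bins of 1 Mb, 398 held no member, and the highest count was 29. Across these bins the number of members had a Spearman rho of 0.689 with the number of shared distal peaks, 0.583 with SRCAP-only distal peaks and 0.610 with GC content, given as a description because bins share 1 library and their base composition.

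**Figure D5:**
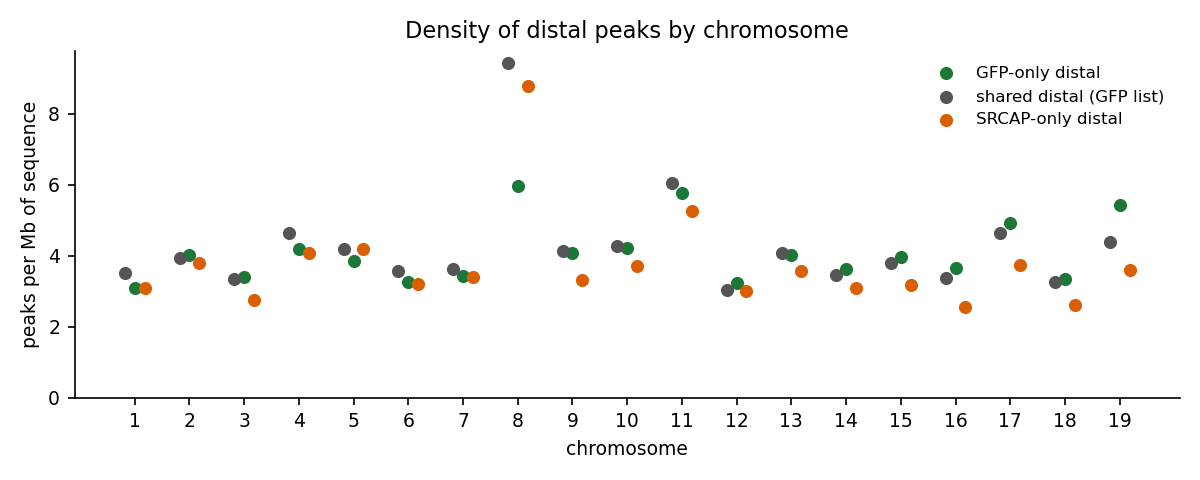
Distal peaks per Mb of sequenced bases on chromosomes 1 to 19 for members (green), shared distal peaks (grey) and SRCAP-only distal peaks (orange). Each point is 1 chromosome in 1 group, without error bars. On chromosome 8 the members stand at 5.96 and the other groups at 9.43 and 8.79, and on the other chromosomes the members lie between 3.10 and 5.77.

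How many members stood in runs depended on the gap allowed. With midpoints joined over gaps of at most 10 kb, they formed 8582 runs, of which 843 held more than 1 member (1840 members, 19.2%) and 25 held 4 or more. With gaps of at most 50 kb, 55.3% of members were in runs of more than 1. The largest run of members, with gaps of at most 10 kb, had 11 over 37.2 kb inside Ube2e1, which encodes a ubiquitin-conjugating enzyme (chr14:18286085-18323312). Their scores ran from 22 to 54, 1 of them was more than 50% masked, and 5 SRCAP peaks and 1 shared GFP peak lay in the same stretch. A run of 7 overlapped Nlrp12 (chr7:3184400-3222334, scores 19 to 75). Runs of 5 lay in Clybl (chr14:122267624-122290706), with no SRCAP peak inside, and in Dennd5b and Gabarapl2, an autophagy gene.

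Of 20807 protein-coding genes on these chromosomes, 3338 (16.0%) held at least 1 member in the body. With RefSeq gene bodies the count was 3302 of 20665. Exactly 1 member was found in 2437 genes, 2 in 593 and 3 or more in 308. Genes with a member were long, with a median body of 64.9 kb against 13.9 kb for the others, and the share with a member rose from 2.68% below 10 kb to 60.4% above 300 kb, so a gene count follows length and densities per Mb are given below.

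By count, the leading genes were Etl4 (14 members), Cbfa2t2, a transcriptional corepressor gene (11), Ube2e1 (11), Clybl (9), Pitpnc1 (9), the calcium channel gene Cacna1a (8), the synaptic gene Rims2 (8) and the meiotic gene Sycp1 (8). Another 4 entries of this rank rest on how GENCODE draws the gene. Gm20388 (35) spans 4435 kb of chromosome 8, Gm37240 (9) and Gm42416 (8) are of the same kind, and Fgfr2 (11), drawn over 2961 kb, held 1 member in its 104 kb RefSeq body. By density, Gabarapl2 led with 5 members in 12.9 kb (387 per Mb), followed by Ube2e1 (224 per Mb), Tomm20, a mitochondrial import receptor gene (198), Zfp989 (160), Zfp990 (141), Pgpep1l (109), Cbfa2t2 (107) and Pgs1 (106). In Gabarapl2 there was 1 shared and no SRCAP-only distal peak, in Tomm20 no shared and 1 SRCAP-only, and in Zfp989 and Pgpep1l neither.

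In some of the leading genes the members stood near peaks of the SRCAP list, and in others they did not. The 11 intronic members of Ube2e1 had scores of 22, 28, 34, 28, 22, 47, 22, 54, 34, 28 and 22 from low to high coordinate, and each lay between 352 and 4480 bp from a SRCAP peak. Those of Cbfa2t2 had scores of 17 to 62, and 10 of the 11 lay within 10 kb of a SRCAP peak, the nearest at 603 bp. In Gabarapl2 the 5 members had scores of 31, 42, 38, 27 and 29 and widths of up to 1155 bp, and the nearest SRCAP peak was 1507 bp away. In Rims2 none of the 8 members lay within 10 kb of a SRCAP peak (nearest at 15763 bp), in Clybl 2 of the 9 did, and in Pgpep1l all 3 lay at least 166043 bp away. In Opcml, a long gene of a neuronal adhesion molecule, the 5 members had scores of 22, 22, 47, 85 and 22 and no SRCAP peak within 558261 bp, and neither other group of distal peaks was present in the body.

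Among the gene lists, members were densest in pluripotency genes, as were the other groups. In bodies of the 23 autosomal pluripotency genes they stood at 13.5 per Mb, with 12.2 shared and 14.9 SRCAP-only distal peaks per Mb. Over all protein-coding genes the values were 4.74, 4.50 and 4.44. The density of members rests on 10 members in 0.739 Mb of bodies, 4 of them in Esrrb. Of the 23 genes, 6 held a member (26.1%, 12.5 to 46.5), an interval that includes the 16.0% of all protein-coding genes. In the lineage regulators, 12 of 48 held one (25%), at 7.33 per Mb (6.60 shared and 6.60 SRCAP-only). In the signalling genes, 16 of 42 did (38.1%), at 6.67 per Mb (4.26 and 5.56), or 14 with RefSeq bodies. These densities rest on 36 members in 5.40 Mb of GENCODE bodies. Of that, the Fgfr2 body drawn over 2961 kb gave 11 members, 10 shared and 21 SRCAP-only distal peaks, so they depend on how that gene is drawn. Genes of the SRCAP and TIP60-p400 complexes and of H2A.Z held a member in 6 of 23, at 10.4 per Mb against 2.61 shared and 3.91 SRCAP-only, which rests on 8 members. Zinc finger genes named Zfp held members in 64 of 358 (17.9%, near the 16.0% of all genes), at 8.78 per Mb (7.77 shared and 4.62 SRCAP-only). Long neuronal genes were the reverse: 22 of 31 held a member but at 1.32 per Mb, below the 1.83 and 1.76 of the other groups. Olfactory receptors held one in 10 of 1128 and vomeronasal receptors in 5 of 329.

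Among developmental genes, in Meis2, a homeobox gene, there were 4 (scores 29, 81, 55 and 15), and that of score 15 lay in a coding exon, 247 bp from a SRCAP peak. In Ebf1, a lineage factor gene, there were 4 (98, 38, 50 and 34). In the BMP receptor gene Bmpr1a there were 2, of which 1 reached a score of 145, in an intron and 52422 bp from a SRCAP peak. The FGF receptor gene Fgfr1 had 3 (54, 51 and 33), Lef1, a transcription factor of Wnt signalling, 2 (49 and 47), the Wnt coreceptor gene Lrp6 2 (25 and 16), Smad1 2 (28 and 32) and Ctnnb1, which encodes beta-catenin, 1 (56). The 2 members that GENCODE places in Fgf4, an FGF ligand gene of mESCs, were 3954 and 3200 bp upstream of its coding TSS and outside its RefSeq body. Of the 48 lineage regulators, 36 had no member in the body, among them Gata4, Gata6, Sox17, Foxa2, T, Eomes and Cdx2. The 12 with a member included Meis1, Pax3, Pax6, Mixl1, Sox11, Runx1 and Zeb2. The median body of this list was 8.19 kb. Of all protein-coding genes 16.0% held a member, and of those below 10 kb 2.68%, so these absences are not read as a result.

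Members were also assigned to the nearest protein-coding TSS, with no limit on distance. In this way 49 fell to 16 of the 23 pluripotency genes (69.6%, against 28.4% of all protein-coding genes). Their scores ran from 17 to 78. Only 10 of the 49 lay within 10 kb of a coding TSS, and 9 lay over 100 kb away. How much sequence lies nearest to each gene was not taken into account. Shared distal peaks numbered 70 at 19 of these genes and SRCAP-only ones 39 at 18, without a share of all genes for comparison. Sox2 had 8 members (11 shared, 2 SRCAP-only), Klf5 7 (6 and 2), Esrrb 6 (1 and 5), Pou5f1 4 (1 and 0), and Sall4, Prdm14 and Mycn 4 each. The 4 members of Sall4, a zinc finger factor of the pluripotency network, had scores of 17, 43, 52 and 78. All lay upstream, between 10618 and 53618 bp from the TSS, and the member of score 78 was 23 bp from a SRCAP peak. Of the 6 members of Esrrb, 4 were intronic, with scores of 18, 54, 31 and 22, and 2 intergenic, with 28 and 76, and 1 of the intronic members lay 6 bp from a SRCAP peak. Klf2, Tfcp2l1, Tbx3, Dppa2, Lin28a, Stat3 and Trim28 had no member. In the SRCAP and TIP60-p400 list, 14 members were nearest to 9 of the 23 genes (39.1%), against 6 shared and 4 SRCAP-only distal peaks. Morf4l1, a chromodomain subunit of TIP60, had 3 (scores 22, 44 and 45) and no peak of the other groups, Epc2 had 2 (88 and 27), H2afz, which encodes H2A.Z.1, 2 (34 and 59) and the H2A.Z chaperone gene Anp32e 2 (34 and 23). Srcap itself had none.

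Some members overlapped annotated enhancers. Of the 9579 members, 48 (0.501%, 0.378 to 0.664) overlapped a RefSeq enhancer, for 1006 enhancer records. In the other groups, 74 of 10132 shared and 36 of 8991 SRCAP-only distal peaks did. The share of distal bases in these enhancers was not taken, so whether 48 is more or less than the background is not known. The scores of the 48 ran from 15 to 83. Of the 48, 40 overlapped VISTA elements, but the share of such elements among all records was not taken either. None held a CTCF consensus at the midpoint, but only 1.56% of all members did, so 48 members are too few to show a difference. At Pou5f1, 3 members fell on the upstream enhancer fragments, at 3316, 1906 and 1295 bp upstream of the TSS with scores of 43, 17 and 45, and the nearest SRCAP peak was at least 11666 bp away from each. The one of score 17 is the sequence with the Oct/Sox box printed above. At Sox2, 1 member fell on the Sox2 control region, 110318 bp downstream of the TSS (chr3:34760580-34760866, score 53, 243 bp from a SRCAP peak, 81.9% masked), and 1 on the element SRR18 (chr3:34668460-34668752, score 44). In an intron of Slc2a3, 1 fell on a fragment that RefSeq lists as activating the Nanog promoter in reporter assays (chr6:122765091-122765318, score 20). The highest score among the 48 was 83, on the VISTA element mm976 in an intron near Rpl14 (chr9:120619548-120619802).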

How the data were processed

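For either antibody the authors deposited a list of peaks, whose names carry MACS2 and the library, so reads were not pooled for calling. Per the labels the submitters' processing notes name STAR, Picard and MACS2 and the build mm10. For ChIP-seq the study describes calling against an input with a q-value threshold and, as for CUT&Tag, keeping reads that map to 1 place. Whether the CUT&RUN lists were made that way is not stated. The deposited score is a whole number of unstated meaning with a minimum of 13, and was used only within a list. The labels alone give the assay of the GFP library, since the methods of the study name that antibody for another assay.

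Peaks were placed at their midpoint, overlaps counted from 1 bp, and midpoints assigned in the order coding exon, UTR, other exon, intron, intergenic (GENCODE vM21, GRCm38). References were all distal bases or all tiles of 200 or 500 bp without N. For distances to a TSS or a GFP promoter peak, distal bases were sampled every 50 bp. Consensus sequences were searched exactly on both strands in 200 bp at the midpoint, with tiles also weighted over 25 GC bins. CTCF, ZNF143, OCT4-SOX2 and REST used degenerate consensus sequences. Masked bases are those in lower case in the RefSeq copy of GRCm38, and tandem repeats were perfect runs of at least 20 bp with units of up to 6 bp. Members, gene lists, tests and alternatives were chosen with earlier results of these data known. Genes were named as those of the 15 highest scores, the 12 with most members, the 8 densest of at least 10 kb with 3 or more members, listed genes with a member, and the largest 5 runs, of which 1 is not reported here. The genes nearest to members of the pluripotency and remodeller lists, the enhancers and the members shown for a consensus or a recurrent stretch were added after their values were seen. Python 3.11.15, numpy 2.4.6, pandas 2.3.3, scipy 1.17.1, numba 0.67.0 and matplotlib 3.10.9 were used, and the overlap, motif, tandem repeat and GC steps were tested on simulated data.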

Additional observations from a re-analysis of the deposited data

Results flagged for a closer look

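Signal also lay outside the chromosomes that the rule covers. On chromosome X, 236 of 396 GFP peaks overlapped no SRCAP peak, with a median score of 40 and a highest score of 175. On chromosome Y, 7 of 29 did so, with a median score of 115 and a highest of 392, above the highest member score of 295. These peaks entered no comparison, and a control antibody was not analysed here.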

How the results depend on the processing

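No paired analysis was possible because there was only 1 library for either antibody. Of 126 recomputed values, 71 stayed within their interval or within 1.5 times the count, 52 moved and 3 reversed. The reversals were in the difference in peaks more than 50% masked, shared minus members, of 2.85 percentage points in all, which was -2.67, -2.28 and -2.24 in score quartiles 1 to 3 and 4.95 in quartile 4. In the quartiles the difference in CTCF (0.557 points in all) was 2.21 and 1.55 in quartiles 1 and 2, that in NFY (1.10) was 0.242, 0.438 and 0.337 in quartiles 2 to 4, that in introns (-2.55) was -1.07 and -0.0663 in quartiles 3 and 4, that in median width (110 bp) was 31, 42.5, 67.5 and 128 bp, and that in median GC (1.2 points) was 2.2, 1.8 and 1.6 in quartiles 1 to 3. The cause was not tested.

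Restricting members to scores at or above the list median left 2744, by construction, with a median score of 57, width of 290 bp, gap of 15550 bp, CpG ratio of 0.230, 39.0% within 10 kb of a SRCAP peak, 46.6% in introns, 17.2% more than 50% masked, 1.24% with CTCF, 3.57% with NFY, 1138 genes and 81 runs. Requiring a reciprocal overlap of 50%, which adds peaks that touch SRCAP peaks, gave medians of 38 for score, 263 bp for width and 8490 bp for the gap, 53.1% within 10 kb and 1272 runs. Counting gaps of up to 500 bp as shared gave a gap of 15919 bp and 36.8% within 10 kb. A promoter window of 2500 bp either side gave a gap of 15609 bp, a CpG ratio of 0.226, 38.2% within 10 kb, 46.7% in introns and 14.9% more than 50% masked, and TSSs of protein-coding transcripts only gave a CpG ratio of 0.240. Without chromosome 8 the gap was 15035 bp and 39.4% lay within 10 kb. Windows of 500 bp gave 4.34% with CTCF, 2.11% with ESRRB and 7.03% with NFY, and a 200 bp window a GC of 48.0%. Without masked bases ESRRB fell to 0.522% and NFY to 2.10%, and windows at most 50% masked had a CpG ratio of 0.241. Assignment to the nearest protein-coding TSS gave 5896 genes, and gaps of 5 and 50 kb gave 463 and 1913 runs. RefSeq gene bodies were added after the data were seen and moved the gene count by less than 1.5 times. With 1 library per antibody, unknown depth and no control library analysed here, a peak missing from the SRCAP list cannot be told apart from one that fell under the threshold of that list.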
